A study of Homo sapiens with 27 samples.

Results

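CTNNB1 encodes β-catenin, and the values described here are all of its transcripts in the 6 libraries of RM82 cells. Members were taken by gene symbol: every transcript identifier that the annotation assigns to CTNNB1 (ENSG00000168036) was kept. Of the 56 CTNNB1 transcripts in the annotation, 33 had at least 1 count in at least 1 library, among 93530 transcript identifiers with a count. The gene itself was chosen by measured values, the fall of its retained-intron counts from DMSO to SGC-CLK-1 in these same libraries, so the difference between treatments is given below as a description. Where calls of the fit over all features fall on CTNNB1, they are counted beside their share among all features, and nothing is read from them.

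β-catenin works at cell junctions and in the nucleus. At junctions it links cadherins through α-catenin to actin. In the cytoplasm a destruction complex of APC, AXIN, GSK3 and casein kinase marks it for the proteasome, and Wnt ligands acting through Frizzled and LRP receptors stop this, after which β-catenin enters the nucleus and acts with TCF/LEF factors on target genes. A retained-intron transcript keeps intronic sequence that the coding transcripts splice out, and by its annotation has no coding sequence.

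The RM82 line is an established Ewing's sarcoma cell line. One group of 3 libraries came from RM82 cells treated with SGC-CLK-1, an inhibitor of the CDC-like kinases that phosphorylate SR splicing factors, for 24 h, and the other group of 3 libraries came from RM82 cells given DMSO, the solvent control. The dose is not given in the sources used here. The study describes its experiments in general as independently repeated, while the labels do not say from which culture each library came, and p-values measure the spread between these libraries. Full-length cDNA primed with oligo(dT) and carrying unique molecular identifiers (UMIs) was read on the PromethION nanopore platform, and each value is a count of UMIs on 1 transcript. The total count was 666702, 362826 and 373004 in SGC-CLK-1 replicates 1, 2 and 3 and 416352, 523456 and 372876 in DMSO replicates 1, 2 and 3.

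The cell line label was checked against 7 genes that Ewing's sarcoma lines are known for. Of these, 6 had counts, led by CCND1 with 181 to 301 counts per library, CD99 with 34 to 74 and STEAP1 with 29 to 46. The others were low: PRKCB had 5 to 13 counts per library, LIPI 0 to 11 and NR0B1, a target of the Ewing fusion protein, 1 to 6. NKX2-2 had 0 counts in every library, which allows at most 3 counts in each, or 4.76 to 9.18 counts-per-million (CPM) on the scale of gene sums. Of the lymphoid markers, 5 of 8 were at 0, and PTPRC, the most abundant, had 3 to 12 counts. KRT8 led the epithelial markers with 7 to 36 counts, and DCN the stromal ones with 6 to 39, so both had more counts in all than PRKCB, LIPI or NR0B1. Summed over the Ewing list, levels were 696, 780 and 746 CPM after SGC-CLK-1 and 1065, 790 and 1099 CPM after DMSO, so this sum was also lower in each SGC-CLK-1 library than in each DMSO library. Without CCND1, its most abundant gene, the sums were 219, 259 and 238 CPM and 338, 239 and 318 CPM, and the groups overlapped. The part of this in the CTNNB1 values was not tested.

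CTNNB1 lies on chromosome 3 on the forward strand (GRCh38). Its canonical transcript, ENST00000349496, runs from 41199505 to 41240443 in 15 exons. The stretch shown here, picked after the counts were seen, is its intron 13, chr3:41236710-41238015, which is 1306 bases long. Whether the counts depend on this intron was not tested. Each of the 4 retained-intron transcripts with more than a few counts holds bases of this intron: 757 in ENST00000485265, 727 in ENST00000645763, 758 in ENST00000482042 and 282 in ENST00000644501. The splice sites of intron 13 are shown beside those of the next intron, 14, with exon bases in capitals and intron bases in lower case, 5′ to 3′ on the forward strand:

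intron 13 donor: GAGgtaggg
intron 13 acceptor: ctttgtgcatgtttatctagACT
intron 14 donor: ATGgtatgt
intron 14 acceptor: tgacaccctgactcttctagATC

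Against the intron part of the donor consensus, GTAAGT, read on the forward strand at the splice site only, the intron 13 donor matched at 4 of 6 letters and the intron 14 donor at 5. Over the 14 introns of the canonical transcript the number of matches ran from 3 to 6, and introns 2 and 13 had 4. The last 20 bases of intron 13 held 13 pyrimidines, as did those of intron 14.

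Intron 13 also holds a run of 21 A, which is shown because oligo(dT) can prime on such a run and because 3 of the 4 retained-intron transcripts are annotated to end at it or just before it. The run is in capitals, with 40 bases before it and 20 after, forward strand:

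chr3:41237407-41237487: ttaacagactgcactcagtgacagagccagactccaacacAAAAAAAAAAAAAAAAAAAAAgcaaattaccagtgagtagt

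The run starts 737 bases into intron 13 and leaves 548 bases to its end. ENST00000485265 ends at 41237466 and ENST00000482042 at 41237467, both inside the run, while ENST00000645763 ends at 41237436, just before it. ENST00000644501 has no such run at its end: it starts downstream of the A run at 41237734, covers the last 282 bases of intron 13, and is spliced from exon 14 to the last exon.

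**Figure D1:**
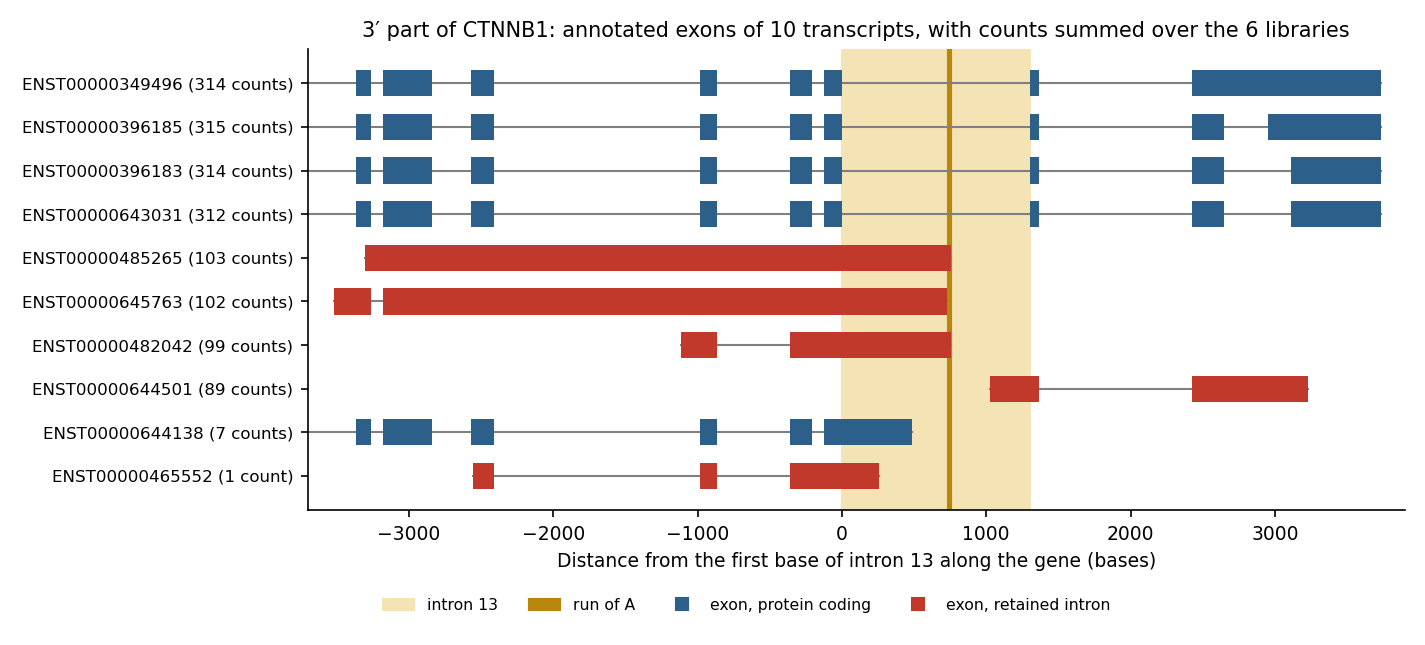
Exons (boxes) of 10 CTNNB1 transcripts over the 3′ part of the gene against the distance in bases from the first base of intron 13, with each transcript's counts summed over the 6 libraries. The 3 retained-intron transcripts that end at the run of A or just before it and the 1 that starts after it all hold part of intron 13 (shaded).

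How far the single isoforms can be told apart depends on the alignment. Up to 3 secondary alignments were kept for a read, so that a molecule could be counted on several transcripts. The 4 abundant protein-coding transcripts, ENST00000349496, ENST00000396185, ENST00000396183 and ENST00000643031, differ mainly in the splicing of the 3′ UTR, and their counts differed by at most 3 in any library. Each held between 23.9 and 25.9% of their summed counts in every library. The retained-intron transcripts ENST00000485265, ENST00000645763 and ENST00000482042 overlap pairwise over at least 97.2% of the shorter transcript, and their counts differed by at most 2 in a library. What all 3 have in common is the last 127 bases of intron 10, exons 11 to 13, intron 12 and the first 727 bases of intron 13, so their counts cannot say whether introns 8, 9 and 11 were retained as well. Sums over isoforms may therefore hold 1 molecule several times, and the near-equal counts within each class are what such counting would give. For how many molecules this was so cannot be told from the counts, and single transcripts are the better guide to depth.

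All 33 CTNNB1 transcripts with counts can be accounted for by class. The annotation lists 43 as protein coding, 10 as retained intron, 2 as targets of nonsense-mediated decay and 1 as coding without a defined coding sequence. Counts were found for 25, 7, 1 and 0 of these. Only 8 CTNNB1 transcripts, 4 coding and 4 retained intron, passed the filter on low counts, the lowest of them with 89 counts over the 6 libraries. The 4 retained-intron transcripts passed it through the DMSO libraries, with 16 to 41 counts there and 3 to 7 after SGC-CLK-1, against a minimum count of 10. The other 25 had at most 7 counts each over all libraries and 45 counts together, and 20 of them had a single count.

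The canonical coding transcript ENST00000349496 had 74, 44 and 45 counts in SGC-CLK-1 replicates 1, 2 and 3 and 68, 18 and 65 counts in DMSO replicates 1, 2 and 3. Scaled to library size by TMM, these were 111, 121 and 122 CPM after SGC-CLK-1 and 161, 34.8 and 173 CPM after DMSO. The SGC-CLK-1 libraries lay close together, and the DMSO libraries lay on both sides of them, so the groups overlapped. Means were 118 ± 5.86 CPM after SGC-CLK-1 and 123 ± 76.6 CPM after DMSO (SD, n = 3 each). The fitted log2 fold change of ENST00000349496, SGC-CLK-1 over DMSO, was −0.03 ± 0.32 (SE). For the other abundant coding transcripts it was −0.05 for ENST00000396185, −0.04 for ENST00000396183 and −0.05 for ENST00000643031, with standard errors of 0.32, 0.33 and 0.32. In bulk libraries, less RNA per cell and fewer cells with the RNA cannot be told apart.

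DMSO replicate 2 stood apart for the coding transcripts of CTNNB1. All 4 of them were at least 3-fold lower there than in either of the other DMSO libraries, which held for 34 of the 7840 transcripts tested (0.434%). In other libraries the same count of transcripts ran from 17 in SGC-CLK-1 replicate 1 to 75 in DMSO replicate 3, and included no CTNNB1 transcript. Without DMSO replicate 2, the 4 coding transcripts had log2 fold changes of −0.54 to −0.52. The sign for the coding transcripts depended on which DMSO library was left out, since without DMSO replicate 1 they lay at 0.20 to 0.23 and without DMSO replicate 3 at 0.25 to 0.28.

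The leading retained-intron transcript, ENST00000485265, is a single unspliced block from exon 8 into intron 13. It had 7, 5 and 4 counts in SGC-CLK-1 replicates 1, 2 and 3 and 26, 21 and 40 counts in DMSO replicates 1, 2 and 3. These were 10.5, 13.8 and 10.8 CPM after SGC-CLK-1 and 61.7, 40.6 and 106 CPM after DMSO. Every DMSO library was above every SGC-CLK-1 library, and the DMSO libraries also differed more among themselves. Group means were 11.7 ± 1.81 and 69.5 ± 33.5 CPM (SD, n = 3 each), and the log2 fold change was −2.53 ± 0.41 (SE).

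ENST00000645763, which splices out intron 8 and then runs unspliced from exon 9 into intron 13, had 7, 5 and 4 counts after SGC-CLK-1 and 25, 20 and 41 after DMSO. ENST00000482042, which is spliced over intron 11 and keeps intron 12, had 6, 5 and 4 counts after SGC-CLK-1 and 24, 20 and 40 after DMSO. In both, the groups were separated in the same way as in ENST00000485265, from which their counts are not independent. Their log2 fold changes were −2.52 ± 0.42 and −2.57 ± 0.42 (SE).

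ENST00000644501 covers the other end of intron 13 and has 0 exonic bases in common with those 3 transcripts. It had 6, 3 and 5 counts in SGC-CLK-1 replicates 1, 2 and 3 and 23, 16 and 36 counts in DMSO replicates 1, 2 and 3, which were 9.02, 8.27 and 13.5 CPM and 54.6, 30.9 and 95.7 CPM. Its libraries fell in the same order of groups, with DMSO replicate 3 highest and DMSO replicate 2 lowest among the controls, and its counts differed from those of the other 3 by at most 5 in a library. The log2 fold change was −2.51 ± 0.44 (SE). It shares 867 of its 1149 bases with the canonical coding transcript. Without DMSO replicate 2, the 4 retained-intron transcripts had log2 fold changes of −2.88 to −2.84. Whether the same molecules were counted on ENST00000644501 and on the upstream transcripts was not tested.

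**Figure D2:**
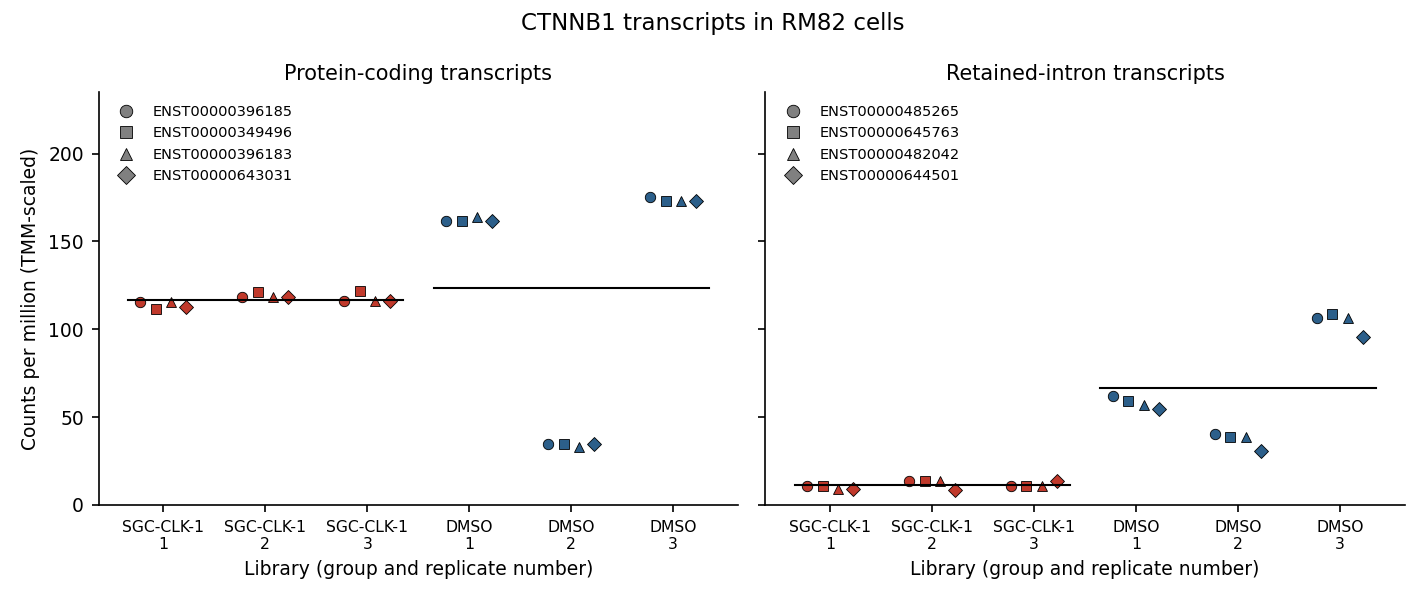
Level in CPM (y axis) of the 4 protein-coding and the 4 retained-intron CTNNB1 transcripts that passed the filter, in each library (x axis). Points are transcripts, lines the mean over the 4 transcripts and 3 libraries of a group. Coding transcripts lie at 111 to 122 CPM after SGC-CLK-1 and at 32.8 to 175 CPM after DMSO, and retained-intron transcripts at 8.27 to 13.8 and at 30.9 to 109 CPM.

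Thus 4 of the 8 CTNNB1 transcripts tested were called lower in the fit over all transcripts (edgeR's quasi-likelihood test, Benjamini-Hochberg adjusted p under 0.05), all of them retained intron. Of all 7840 transcripts tested, 2.13% were called lower, as were 5.12% of the 645 retained-intron and 1.86% of the 5758 protein-coding transcripts tested. The same 4 had groups that did not overlap, which held in the lower direction for 11.3% of all transcripts tested and 13.8% of the retained-intron ones. Since the gene was chosen for this, and the 4 passed the filter only through the DMSO libraries, nothing is read from these counts or from the medians. The median log2 fold change was −2.52 over the 4 CTNNB1 retained-intron transcripts and −0.04 over the 4 coding ones, beside −0.01 over all 645 retained-intron transcripts and −0.01 over all transcripts tested.

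**Figure D3:**
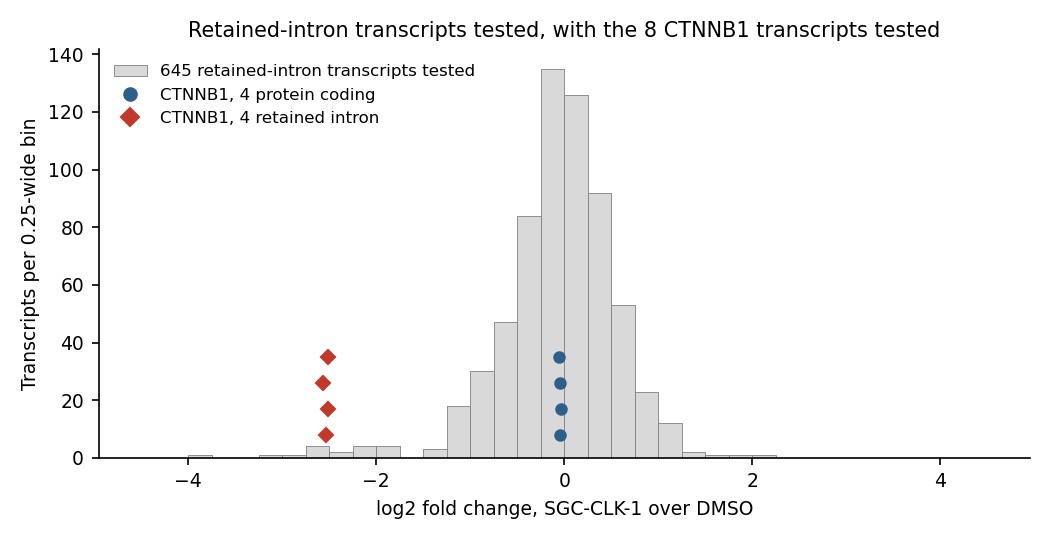
Histogram of log2 fold changes, SGC-CLK-1 over DMSO (x axis), of the 645 retained-intron transcripts tested (y axis, transcripts per bin), with the 8 CTNNB1 transcripts tested as points whose height has no meaning. The 4 CTNNB1 retained-intron transcripts lie between −2.57 and −2.51 and the 4 coding ones between −0.05 and −0.03.

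Among the transcripts with too few counts to be tested, those that enter intron 13 can be set apart, a grouping made after the values were seen. ENST00000644138, a coding transcript annotated to end 487 bases into intron 13, had 0 counts in each SGC-CLK-1 library and 1, 1 and 5 counts in DMSO replicates 1, 2 and 3. ENST00000465552, a retained-intron transcript with 258 bases of intron 13, had a single count, in DMSO replicate 3. The 2 listed retained-intron transcripts without bases of intron 13 did not follow the 4 abundant ones: ENST00000643865 had 1 count in each SGC-CLK-1 library and in DMSO replicate 3, and ENST00000645305 had 1 count in each of SGC-CLK-1 replicates 1 and 2. All of these are near the limit of what the depth can show. The 6 transcripts with bases of intron 13 summed to 26, 18 and 17 counts after SGC-CLK-1 and 99, 78 and 163 counts after DMSO.

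Summed over isoforms, retained-intron transcripts of CTNNB1 had 28, 20 and 18 counts in SGC-CLK-1 replicates 1, 2 and 3 and 98, 77 and 159 counts in DMSO replicates 1, 2 and 3. Protein-coding transcripts had 308, 178 and 175 counts after SGC-CLK-1 and 280, 76 and 275 after DMSO. In CPM, the retained-intron sum was 48.6 ± 6.52 after SGC-CLK-1 and 268 ± 140 after DMSO, 5.51-fold higher in DMSO, and the coding sum was 475 ± 14.0 and 514 ± 320 (SD, n = 3 each). The retained-intron groups did not overlap and the coding groups did. The log2 ratio of mean CPM was −2.46 for the retained-intron sum and −0.11 for the coding sum, and −2.76 and −0.56 without DMSO replicate 2.

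The retained-intron share of all CTNNB1 counts was 8.33, 10.1 and 9.33% in SGC-CLK-1 replicates 1, 2 and 3 and 25.9, 50.3 and 36.6% in DMSO replicates 1, 2 and 3. The highest share after SGC-CLK-1 was below the lowest after DMSO, as it was in 5.59% of the 1718 genes with at least 20 counts in every library and both kinds of transcript. Means were 9.24 ± 0.862% and 37.6 ± 12.2% (SD, n = 3 each), a difference of −28.4 percentage points. The share of DMSO replicate 2, 50.3%, was the highest although its retained-intron level was the lowest of the controls, since its coding level was lower still, and without that library the DMSO mean was 31.3%.

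Because the sums may hold molecules several times, the share was also taken from the most abundant transcript of each class in each library. This gave 7 of 84, 5 of 49 and 5 of 50 counts after SGC-CLK-1, or 8.33% (exact Clopper-Pearson 95% interval 3.42 to 16.4), 10.2% (3.40 to 22.2) and 10.0% (3.33 to 21.8). After DMSO it gave 26 of 95, 21 of 39 and 41 of 107 counts, or 27.4% (18.7 to 37.5), 53.8% (37.2 to 69.9) and 38.3% (29.1 to 48.2). The intervals cover counting error only.

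**Figure D4:**
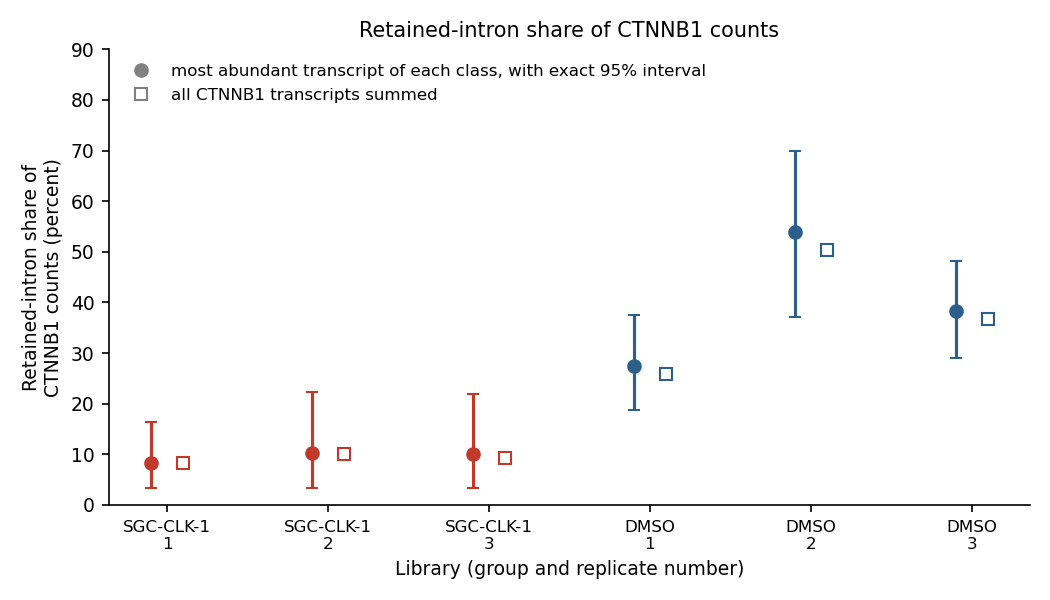
Retained-intron share of CTNNB1 counts in percent (y axis) in each library (x axis), from the most abundant transcript of each class (filled circles, with exact 95% intervals) and from all CTNNB1 transcripts summed (open squares). By either measure the SGC-CLK-1 libraries lie at 8.33 to 10.2% and the DMSO libraries at 25.9 to 53.8%.

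Over the whole library, the share of counts in retained-intron transcripts was 8.81, 8.84 and 8.79% in the SGC-CLK-1 libraries and 8.64, 8.78 and 8.56% in the DMSO libraries. These groups did not overlap either, with the SGC-CLK-1 libraries slightly higher, the opposite direction to CTNNB1. Other library-wide measures separated the groups too: mitochondrial genes took 0.723, 0.534 and 0.517% of counts after SGC-CLK-1 and 0.883, 0.757 and 0.858% after DMSO, and 93.3 to 93.4% of counts after SGC-CLK-1 and 92.5 to 92.8% after DMSO matched the annotation. DMSO replicate 3, with the highest retained-intron level of CTNNB1, also lay farthest out on the first principal component of the most variable transcripts (−17.7, against −10.5 and −6.79 for DMSO replicates 1 and 2 and 6.73 to 14.6 for the SGC-CLK-1 libraries). The part of these in the CTNNB1 values was not tested. Over the 1718 genes, the median difference in retained-intron share was 0.204 percentage points, against −28.4 for CTNNB1, and 5 genes, CTNNB1 among them, had a difference at least as low. A run of at least 12 A was sought from 20 bases before to 40 bases after each annotated 3′ end. Transcripts with such a run took 3.42 to 3.45% of counts in the SGC-CLK-1 libraries and 3.13 to 3.47% in the DMSO libraries. Of the retained-intron transcripts tested, 92 (14.3%) had such a run, 3 of them from CTNNB1. Leaving CTNNB1 out, 1 of 89 with such a run was called lower and 28 of 552 without one. Priming inside intron 13 of CTNNB1 was not tested.

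For the CTNNB1 gene sum, levels in the fit over genes were 533, 572 and 539 CPM in SGC-CLK-1 replicates 1, 2 and 3 and 975, 320 and 1328 CPM in DMSO replicates 1, 2 and 3. The SGC-CLK-1 libraries lay between DMSO replicate 2 and the other DMSO libraries, so the groups overlapped. Means were 548 ± 21.2 and 874 ± 511 CPM (SD, n = 3 each), with a log2 fold change of −0.67 ± 0.35 (SE). The CTNNB1 gene sum was not among the genes called, which were 0.315% of the 6344 genes tested (8 lower, 0.126%, and 12 higher, 0.189%). Without DMSO replicate 2 the log2 fold change was −1.07 and the gene sum was called lower, from which nothing is read, and without DMSO replicate 3 it was −0.24 and the gene sum was not called. In place of the sum, the most abundant CTNNB1 transcript of each library, which was a coding one in all libraries but DMSO replicate 2, gave a log2 ratio of −0.08.

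Among the 6343 other genes tested, the 5 whose pattern over the 6 libraries was nearest to that of the CTNNB1 gene sum were ARPC4, COX7A2, ANAPC10, PHF6 and BEX3. The measure was the root mean square difference of centred log2 CPM, and it ran from 0.20 for ARPC4 to 0.22 for BEX3, against a median of 0.76 over all genes compared. ARPC4, a subunit of the actin-nucleating Arp2/3 complex, had 53.9, 51.8 and 53.1 CPM after SGC-CLK-1 and 79.9, 35.6 and 107 CPM after DMSO. Like the CTNNB1 sum, it was low in DMSO replicate 2 and highest in DMSO replicate 3.

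The 5 transcripts of other genes nearest to ENST00000485265, among 7832 compared, were ENST00000642161, ENST00000645253 and ENST00000642589 of DDX3X, ENST00000645621 of ATP13A3 and ENST00000472174 of ATP6V0B. The root mean square difference from the CTNNB1 transcript was 0.36 for the nearest and 0.44 for the last, against a median of 1.16. The first 4 are annotated as retained intron and the last as protein coding, and none of them has a run of at least 12 A near its annotated end. The DDX3X transcripts may hold the same molecules, as those of CTNNB1 may, so they are not to be taken as independent. ENST00000642161 of DDX3X, an RNA helicase gene, had 10.5, 13.8 and 10.8 CPM after SGC-CLK-1 and 52.2, 44.4 and 53.1 CPM after DMSO. Its DMSO libraries lay closer together than those of the CTNNB1 transcript, which had 61.7, 40.6 and 106 CPM.

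Around CTNNB1, 100 genes of its pathway and of its junctional partners were listed, of which 88 had counts and 36 could be tested as gene sums. As for CTNNB1, a gene sum may hold 1 molecule several times, and how far it does may differ between genes. None of these 36 passed an adjusted p of 0.05 in either direction in edgeR's quasi-likelihood fit. At an unadjusted p under 0.05 there were 2 higher and 5 lower, where 13.8% of all 6344 genes had such a p. DESeq2 called 1 of them, TLE3, among 131 genes called of the 1303 to which it gave an adjusted p. The median log2 fold change of the 36 was 0.01, beside 0.00 over all genes tested.

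Of 32 ligands, receptors and their helpers, 4 could be tested, with a median log2 fold change of 0.20. WNT5A, a ligand that often signals without β-catenin, had 154, 118 and 116 counts after SGC-CLK-1 and 92, 84 and 47 after DMSO. Its transcripts ENST00000264634 and ENST00000474267 each had 77, 59 and 58 counts after SGC-CLK-1. After DMSO they had 46, 42 and 23 and 46, 42 and 24, so the sum may hold the same molecules on both. The level of the WNT5A sum was 303 ± 51.2 and 186 ± 47.4 CPM (SD, n = 3 each), with an adjusted p of 0.20. The Frizzled receptor gene FZD3 had 2, 13 and 13 counts after SGC-CLK-1 and 37, 25 and 33 after DMSO. Both WNT5A and FZD3 had groups that did not overlap (10.0% of all genes were separated upwards and 9.68% downwards). The log2 fold change of FZD3 was −1.81 ± 0.58 (SE) with an adjusted p of 0.16, and that of the co-receptor gene LRP6 was 0.73 ± 0.40 (SE) with an adjusted p of 0.45.

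The destruction complex and the ligase and phosphatase subunits that act with it, which set how much β-catenin protein persists, gave 10 testable genes of 20. Their median log2 fold change was 0.04, and the smallest adjusted p was 0.47, for SKP1. The casein kinase gene CSNK1A1, the most abundant, was at 598 ± 29.0 CPM after SGC-CLK-1 and 659 ± 31.7 CPM after DMSO (SD, n = 3 each), a log2 fold change of −0.14 ± 0.18 (SE). SKP1 and CUL1, which encode subunits of the ubiquitin ligase, had log2 fold changes of −0.39 ± 0.22 and 0.07 ± 0.36 (SE).

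Among nuclear partners of β-catenin, 10 of 20 could be tested, with a median log2 fold change of −0.13. The corepressor gene TLE3 had 284, 140 and 120 counts after SGC-CLK-1 and 251, 416 and 211 after DMSO, or 396 ± 57.8 and 721 ± 130 CPM (SD, n = 3 each). Its groups did not overlap, its log2 fold change was −0.86 ± 0.21 (SE) and its adjusted p was 0.079. In the fit over single transcripts, ENST00000317509 of TLE3 was the 1 transcript called among the 42 tested from these lists (log2 fold change −0.83 ± 0.24 (SE), adjusted p = 0.042), beside 2.13% of all transcripts called lower, and no retained-intron transcript of the listed genes could be tested. SMARCA4, a chromatin remodelling ATPase gene, and TCF7L2, which encodes a DNA-binding partner of β-catenin, had log2 fold changes of −0.09 ± 0.24 and −0.18 ± 0.27 (SE).

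Of 17 known transcriptional targets, 5 could be tested, with a median log2 fold change of −0.45. CCND1, which encodes cyclin D1, was at 502 ± 22.4 CPM after SGC-CLK-1 and 686 ± 120 CPM after DMSO, BIRC5, which encodes survivin, at 276 ± 41.1 and 414 ± 32.3 CPM, and ID2 at 123 ± 18.3 and 185 ± 54.4 CPM (SD, n = 3 each). Their adjusted p values were 0.32, 0.20 and 0.35. The groups overlapped for ID2 and did not for CCND1 and BIRC5. For MYC the SGC-CLK-1 libraries were all above the DMSO libraries, the log2 fold change was 0.59 ± 0.29 (SE) and the adjusted p was 0.38. CCND1 also stands in the Ewing list.

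Of 16 partners of β-catenin at cell junctions, 8 could be tested, with a median log2 fold change of 0.33. CTNND1, which encodes p120-catenin, was at 171 ± 46.8 and 135 ± 16.3 CPM, CTNNA1, which encodes the α-catenin that binds β-catenin, at 154 ± 42.1 and 121 ± 80.6 CPM, and PKP4 at 112 ± 26.1 and 103 ± 41.6 CPM (SD, n = 3 each, SGC-CLK-1 first). The groups overlapped for each of them. The smallest adjusted p in the list was 0.20, for CTNNAL1, an α-catenin-like gene with 52, 25 and 22 counts after SGC-CLK-1 and 20, 13 and 6 after DMSO.

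**Figure D5:**
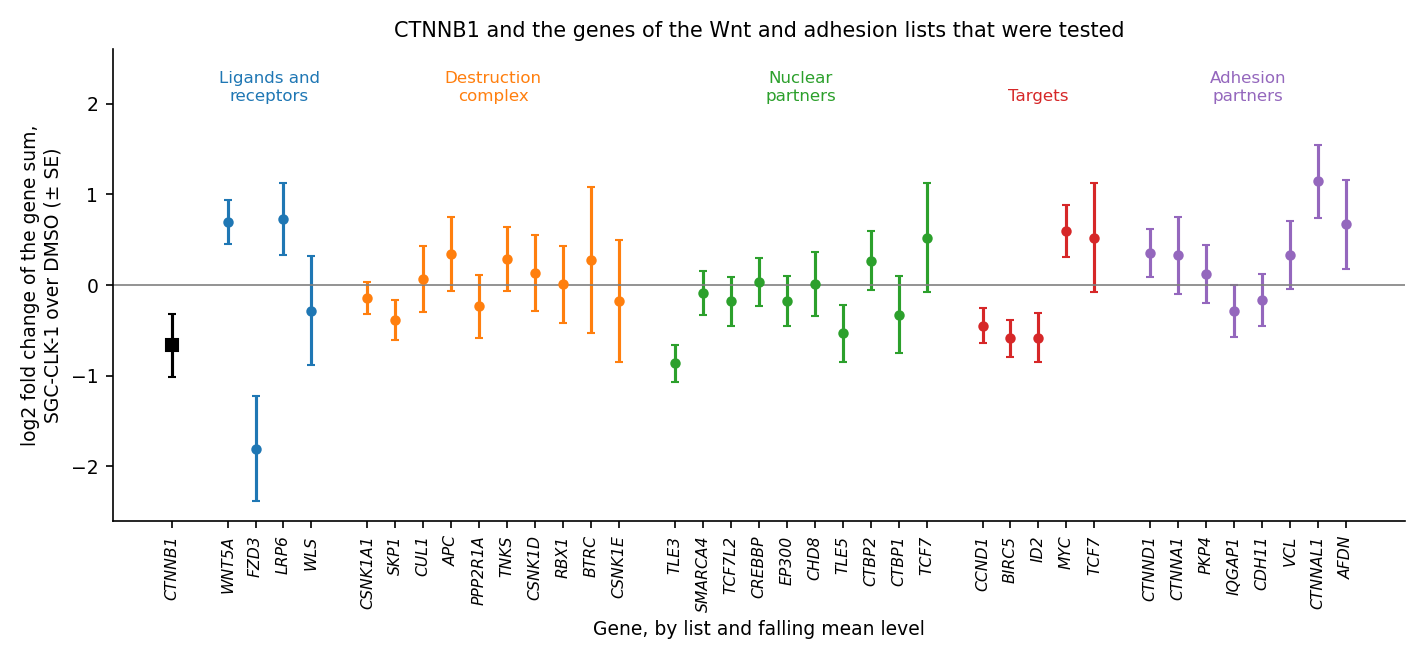
log2 fold change of the gene sum, SGC-CLK-1 over DMSO (y axis, error bars are SE), of CTNNB1 and of each tested gene of the 5 lists (x axis, by list and falling mean level; TCF7 is in 2 lists). CTNNB1 lies at −0.67, TLE3 at −0.86 and FZD3 at −1.81, and none of the listed genes passed the adjusted threshold.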

How the data were processed

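RM82 cDNA with homotrimer UMIs was sequenced on PromethION R9.4.1 flow cells. After base calling, the authors aligned the reads with minimap2 to hg38 transcripts, kept up to 3 secondary alignments and removed duplicate UMIs. Per the labels, minimap2 was version 2.22. The deposited counts are UMIs per transcript and library, without normalization; whether UMI-tools or homotrimer correction made them is not given in the sources used here. A transcript that a library does not list was set to 0.

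Identifiers without version were matched to GENCODE release 44 (92.3% of 93530), which also gave coordinates; sequences were read from GRCh38. Counts were fitted with edgeR 4.0.16 in R 4.3.3 (filterByExpr, minimum count 10, total 15; TMM; quasi-likelihood test; Benjamini-Hochberg adjusted p under 0.05), over all transcripts (7840 tested) and over gene sums (6344 tested), and checked on simulated data. The simulated rows were drawn independently, unlike counts on overlapping isoforms, and with the same spread for transcripts and genes. DESeq2 1.42.0 was an alternative. The CPM values use the TMM-scaled library sizes, and the log2 values for likeness a prior count of 2. The sums were taken over unfiltered transcripts, except under the alternative minimum of 10 counts in every library.

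CTNNB1, the gene lists, the tests and the rule for named genes (transcripts that passed the filter; in each list, genes past the threshold and the 3 most abundant; the 5 nearest genes and transcripts) were chosen with earlier results of these data known. MYC and CTNNAL1 were named after their values were seen. Alternatives were other scalings, filters and shares, DESeq2, a replicate block and leaving out each library. A table with 4 columns that match no label, and reports without transcripts, were not used.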

Additional observations from a re-analysis of the deposited data

How the results depend on the processing

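With 1 library left out, the log2 ratio of the retained-intron sum of CTNNB1 lay between −2.76 and −2.00 and the difference in its share between −34.2 and −22.0 percentage points. The gene was chosen on this fall, so its direction supports nothing. A minimum of 10 counts in every library left no retained-intron transcript, so it gave no value. Over the other alternatives, the 4 retained-intron transcripts had log2 fold changes of −2.88 to −2.06, and DESeq2 called 3 of the 4, with no adjusted p for ENST00000644501, where it called 2.25% of the 4677 transcripts with an adjusted p lower; nothing is read from these calls. The gene sum, −0.67, lay between −1.07 and −0.24 when 1 library was left out. The coding sum, −0.11, lay between −0.56 and 0.19 when 1 library was left out. Taking the most abundant transcript, chosen after seeing the data, gave −2.48 for the retained-intron sum, −0.06 for the coding sum and −30.3 percentage points for the share.

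Counts of calls moved more. Transcripts called were 312, against 162 with no filter, 169 with at least 10 counts in every library and 128 in DESeq2 (of 4677 with an adjusted p), and 86 to 355 when 1 library was left out (86 and 140 without SGC-CLK-1 replicates 2 and 3, 121 and 195 without DMSO replicates 1 and 3). Retained-intron transcripts called, in either direction, were 43, against 20 with at least 10 counts in every library and 16 in DESeq2, and 20 to 42 when 1 library was left out. Genes called were 20, against 169 with no filter, 66 with at least 10 counts in every library and 131 in DESeq2, and 1 to 21 when 1 library was left out (at most 6 without any library but DMSO replicate 2). Of the genes of the Wnt lists 0 were called, against 2 with no filter (TLE3 and FZD3), 1 with at least 10 counts in every library and 1 in DESeq2 (TLE3 in both) and 1 among single transcripts, and 0 when any 1 library was left out. Other scalings kept each of these counts within 1.5 times. The cause of these differences was not tested.

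Deviations of same-numbered libraries from their group means correlated at 0.06, 0.09 and −0.00, and those of the other pairs at −0.12 to 0.07. With 3 libraries per group these values are tied to each other, so they cannot show whether replicate numbers pair the libraries. With the replicate number as a block, 501 transcripts, 59 retained-intron transcripts, 36 genes and 0 genes of the Wnt lists were called, and the log2 fold change was −0.48 for the CTNNB1 gene sum, −2.34 for the retained-intron sum and 0.20 for the coding sum. Depth limits the retained-intron values, since the leading transcript had 4 to 7 counts in the SGC-CLK-1 libraries.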
